A study of Mus musculus with 6 samples.

Results

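The 76 genes described here encode proteins of the cytosolic ribosome of the mouse. They were chosen by their symbols (Rpl or Rps with a number and an optional a or x, or Rplp0, Rplp1 and Rplp2), with paralogues whose symbols end in l or l1 left out. They are 76 of the 22958 gene entries measured in the series, 46 of the large and 30 of the small subunit. The entries that match the rule number 78, since Rpl30 and Rpl34 are listed in duplicate, and the entry with more reads was kept for each.

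Brain endothelial cells were sorted at E11.5 as CD31+, PECAM1+, 2 names of the same endothelial surface protein, from embryos whose mothers had received tamoxifen at E9.5. The Axin1 group (3 libraries) had the genotype Cdhrs5CreERT2:R26Axin1IL+/- and overexpressed Axin1, and the control group (3 libraries) had Cdhrs5CreERT2:R26Axin1IL-/- and wildtype Axin1 expression, both as the labels spell them and both on C57BL/6 x 129/Sv. Both groups thus carry the inducible Cre and were exposed to tamoxifen. The labels do not give the cells in which this Cre is active, the share of sorted cells that recombined, or the litters and pools behind a library. Polyadenylated RNA was amplified to cDNA with a kit for very small inputs. Axin1, a scaffold protein of the beta-catenin destruction complex, measured 79.8, 62.2 and 66.2 CPM (read counts scaled to library size with TMM factors) in the Axin1 libraries and 25.03, 17.6 and 20.8 CPM in the control libraries. Library totals ran from 11633853 to 14234409 reads in the Axin1 group and from 10772492 to 13035808 in the control group.

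A ribosome joins a small subunit, which reads the mRNA, to a large subunit, which forms peptide bonds and carries the stalk that recruits elongation factors. Its protein genes are transcribed at high and roughly matched rates, and most of their mRNAs begin with a pyrimidine tract (the 5′ TOP motif) through which mTOR signalling and LARP1 control their translation. Their mRNAs are short and abundant, and mammalian genomes hold many processed pseudogenes copied from them, so a short read from such an mRNA can match several places.

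How far such copies reach into a coding sequence is shown for 4 genes, because the letters of a short read from a shared stretch do not say which gene it came from. The sequences are the first coding bases, at most 300, on the mRNA strand from the reference annotation (GENCODE M21, GRCm38). Capitals mark bases covered by at least 1 word of 40 bases that occurs in no other annotated gene, and lower case marks bases whose every such word is shared with another gene. Rps26 (chr10:128624534-128626747, minus strand) was lower in the Axin1 libraries, Rpl41 (chr10:128548114-128549305, minus strand) has the shortest coding sequence of the 4, and Rps12 (chr10:23785183-23787275, minus strand) and Rpl26 (chr11:68901583-68906989, plus strand) had almost no reads.
Rps26: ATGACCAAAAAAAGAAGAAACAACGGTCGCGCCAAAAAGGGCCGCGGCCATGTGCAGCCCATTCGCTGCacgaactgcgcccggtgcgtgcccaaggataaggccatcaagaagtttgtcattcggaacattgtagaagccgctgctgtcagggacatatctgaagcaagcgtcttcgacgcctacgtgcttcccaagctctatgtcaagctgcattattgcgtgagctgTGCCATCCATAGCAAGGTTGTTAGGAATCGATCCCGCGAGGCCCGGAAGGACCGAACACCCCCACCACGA
Rpl41: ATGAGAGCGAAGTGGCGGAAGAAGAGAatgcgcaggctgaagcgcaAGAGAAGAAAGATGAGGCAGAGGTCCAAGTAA
Rps12: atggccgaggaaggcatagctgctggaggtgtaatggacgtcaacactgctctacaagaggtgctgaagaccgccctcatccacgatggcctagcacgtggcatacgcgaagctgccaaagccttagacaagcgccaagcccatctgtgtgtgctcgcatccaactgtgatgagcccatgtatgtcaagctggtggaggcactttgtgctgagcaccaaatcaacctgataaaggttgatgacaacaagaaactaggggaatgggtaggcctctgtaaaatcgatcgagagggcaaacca
Rpl26: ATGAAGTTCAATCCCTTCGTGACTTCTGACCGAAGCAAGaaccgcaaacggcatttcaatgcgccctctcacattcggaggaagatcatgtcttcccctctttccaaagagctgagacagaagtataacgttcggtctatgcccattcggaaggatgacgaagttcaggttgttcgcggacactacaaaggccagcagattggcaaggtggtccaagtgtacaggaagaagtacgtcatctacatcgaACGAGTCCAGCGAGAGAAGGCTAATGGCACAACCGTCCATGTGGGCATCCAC
Of these printed bases, 139 of 300 were in capitals for Rps26, 59 of 78 for Rpl41, 91 of 300 for Rpl26 and 0 of 300 for Rps12. The stretch shown of Rps12 therefore holds no 40-base word of its own, and the middle of Rps26 and of Rpl26 holds none either.

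Together the ribosomal protein genes took up a smaller part of the reads in the Axin1 libraries. They held 2.15%, 2.22% and 2.16% of the reads in Axin1 libraries 1, 2 and 3, and 2.97%, 2.83% and 2.69% in control libraries 1, 2 and 3. The groups did not overlap, and the spread was wider among the controls, with means of 2.17% ± 0.0359 in the Axin1 group and 2.83% ± 0.143 in the control group (SD, n = 3 each). The Axin1 mean was 23.2% lower. Proteins of the large subunit accounted for 1.21% ± 0.0137 of the reads in the Axin1 group and 1.55% ± 0.0710 in the control group, and those of the small subunit for 0.963% ± 0.0228 in the Axin1 group and 1.28% ± 0.0752 in the control group (SD, n = 3 each). As a share of the summed RPKM (reads scaled to length and depth, as deposited), the genes held 8.46%, 8.75% and 8.52% in the Axin1 libraries and 10.8%, 10.6% and 10.1% in the control libraries, so that scale showed a smaller gap of 18.3% of the control mean. In bulk RNA, fewer cells of a type and less RNA per cell cannot be told apart, and every value is relative to the rest of the library.

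**Figure D1:**
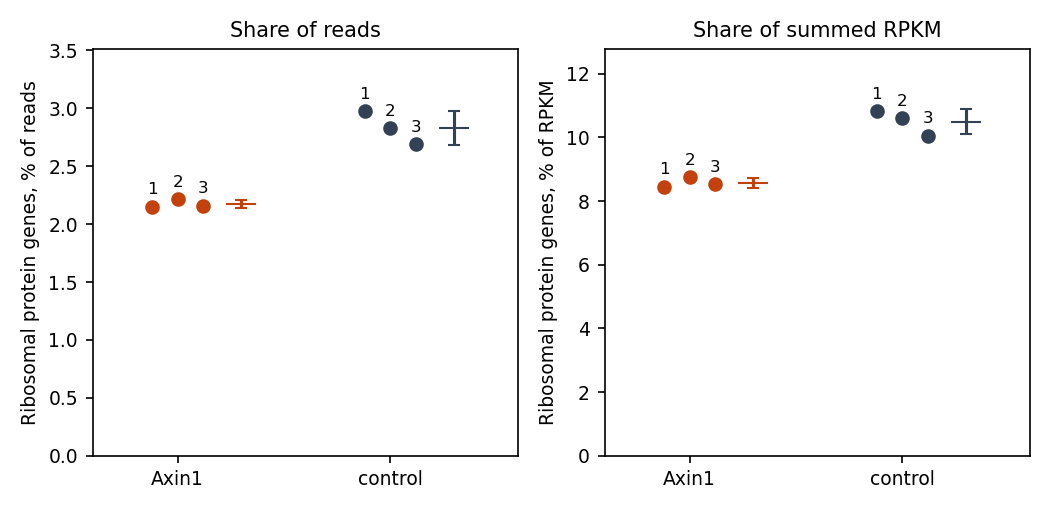
Share of a library held by the 76 ribosomal protein genes, as a percentage of reads (left) and of summed RPKM (right), with Axin1 libraries left of control libraries. Points are libraries with their replicate numbers, and bars are the mean and SD of 3 libraries. On both scales all 3 Axin1 points lie below all 3 control points.

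Most of the genes had a similar, modest negative difference. Of the 73 that passed the filter on low counts, 69 had a negative log2 fold change (Axin1 over control), with a median of -0.40 (interquartile range -0.53 to -0.28), against a median of 0.02 over all 12661 tested genes, of which 47.5% were negative. With library sizes taken from these genes' own summed reads, 37 of 73 were negative and their median was -0.01, which that scaling sets by construction. The change was at or below -0.50 for 22 of the 73 and at or below -0.25 for 59. In edgeR's quasi-likelihood test 4 genes passed an adjusted p of 0.05 and were lower, and 0 were higher (1 at an unadjusted p under 0.05, against 9.06% of all genes). Over all genes 0.845% were called, 0.49% lower and 0.355% higher. Values of the groups did not overlap, with the Axin1 libraries lower, for 49 of 73, against 12.4% of all genes. The Axin1 libraries were higher without overlap for 1 of 73, against 11.3% of all genes, and the remaining 23 overlapped (23.8% of all genes did not overlap in either direction). An unadjusted p under 0.05 with a lower level was found for 47 of the 73, against 8.14% of all genes.

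The count of 4 depends on the fit and on the libraries. With DESeq2's Wald test 26 of 73 were lower and 1 was higher (2.52% of all genes were lower and 3.17% higher), with limma on log2(RPKM + 1) 11 were lower (0.498% of all genes), and without the low-count filter 11 of 76 (0.579% of all genes). By edgeR it was 0 without Axin1 library 1, 2 or 3 or without control library 1 or 2. In these 5 fits an unadjusted p under 0.05 was found for 44, 42, 45, 39 and 40 of the 73 genes, against 18.1%, 13.5%, 13%, 12.1% and 11.9% of all genes. Without control library 3, which had the lowest share of the controls, it was 26 lower (1.41% of all genes) with 1 higher.

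**Figure D2:**
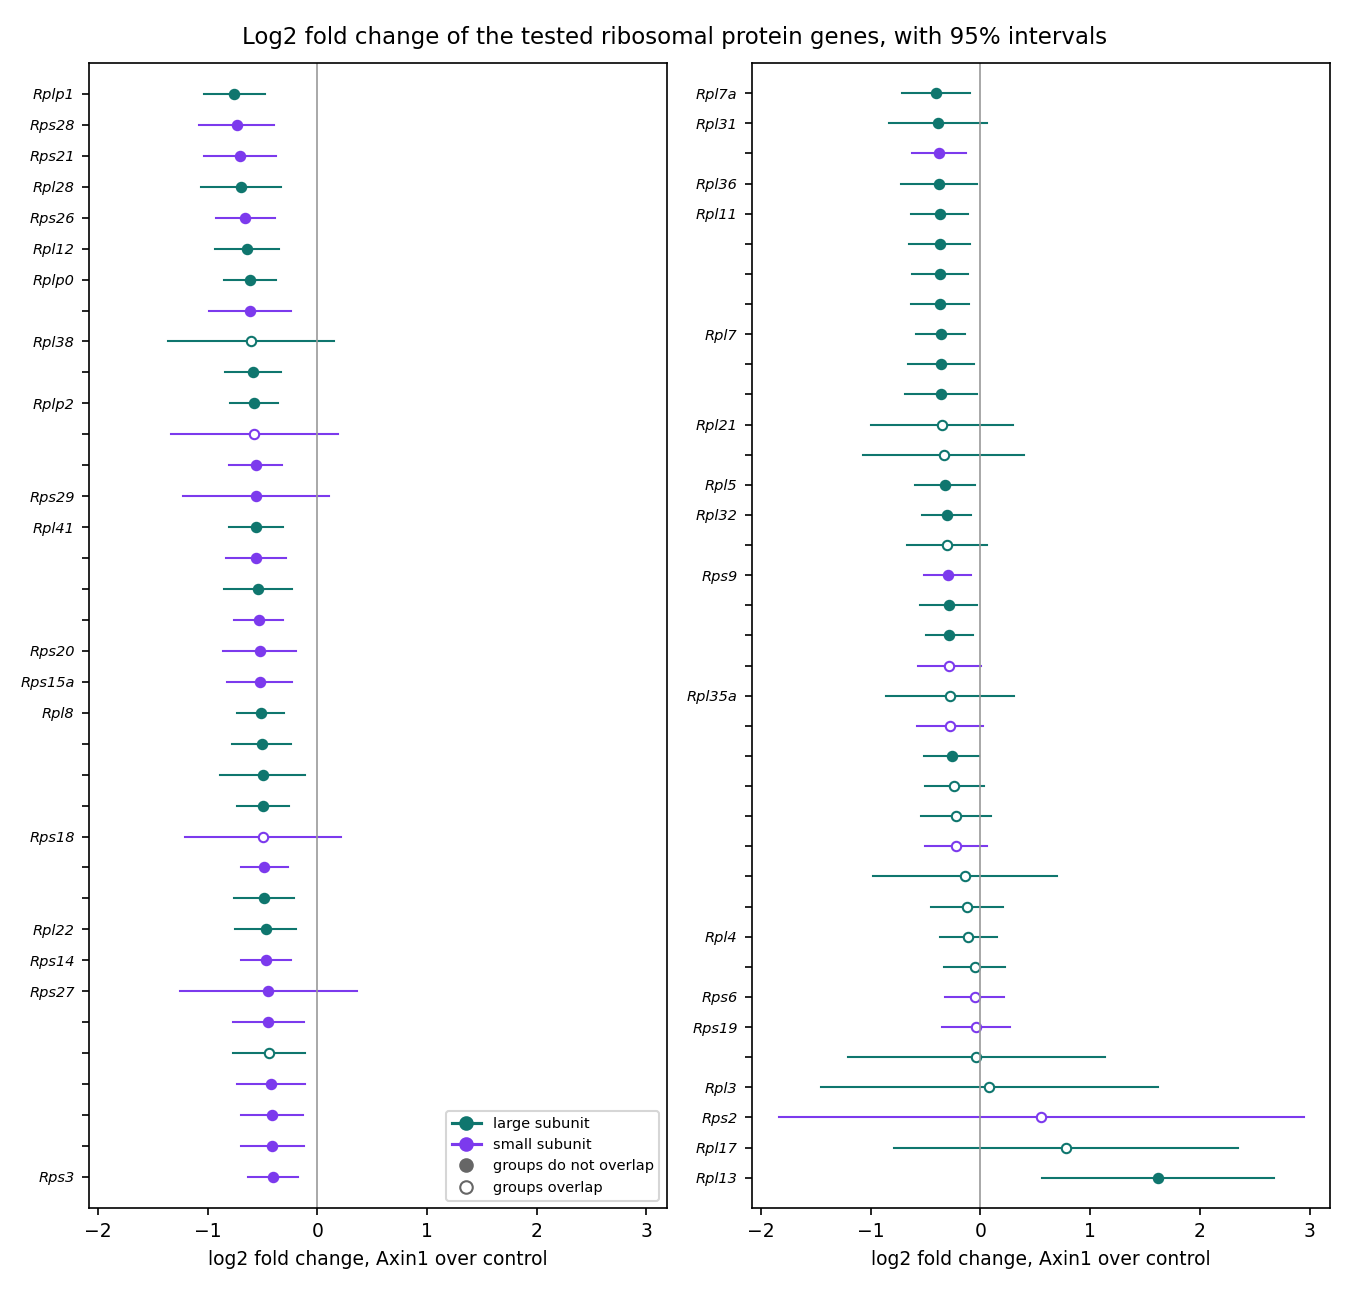
Log2 fold change, Axin1 over control, of the 73 tested ribosomal protein genes in order of size, with 95% confidence intervals from edgeR. Names stand beside genes given in the text. Filled points mark genes whose groups do not overlap. Points lie left of 0 for 69 genes (37 when library sizes are taken from the family's own reads), and the intervals of Rps2, Rpl3 and Rpl17 are among the widest.

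The genes past the threshold were Rps26 and those of the P stalk, the flexible arm of the large subunit that recruits and activates elongation factors. All 3 stalk protein genes fell. Rplp1, one of the acidic stalk proteins, measured 300, 379 and 300 CPM in the Axin1 libraries and 584, 527 and 543 CPM in the control libraries. The groups stood well apart, and the log2 fold change was -0.76 (SE 0.12, 95% interval -1.03 to -0.48, edgeR adjusted p = 0.0421). Rplp2, its partner in the stalk, measured 237, 258 and 260.3 CPM in the Axin1 libraries and 389.7, 363 and 377 CPM in the control libraries. Its replicates were tight in both groups, and the fold change was -0.58 on the log2 scale (SE 0.10, edgeR adjusted p = 0.0436). Rplp0, which anchors the stalk to the ribosome, measured 1476, 1367 and 1288 CPM in the Axin1 libraries and 1909, 2211 and 2199 CPM in the control libraries. Here control library 1 was the lowest control and still exceeded every Axin1 library, and the log2 difference was -0.61 (SE 0.10, edgeR adjusted p = 0.0438). Rpl12, which sits at the base of the stalk, measured 39.9, 39.6 and 37.8 CPM in the Axin1 libraries and 67.3, 54.9 and 61.0 CPM in the control libraries. Its groups did not overlap, but its log2 fold change of -0.64 did not pass the threshold (edgeR adjusted p = 0.0613).

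In the small subunit Rps26 fell, the protein that contacts the mRNA at the exit channel. It measured 167, 205 and 179 CPM in the Axin1 libraries and 316, 279.5 and 274 CPM in the control libraries (log2 fold change -0.66, SE 0.12, edgeR adjusted p = 0.0492). Every Axin1 value was below every control value, and the adjusted p lay just inside the threshold: it was 0.0516 with RLE factors and 0.0539 with library totals alone. Rps28, also near the mRNA exit, measured 22.5, 25.9 and 24.0 CPM in the Axin1 libraries and 40.7, 44.7 and 35.2 CPM in the control libraries (log2 fold change -0.73, edgeR adjusted p = 0.0644). Rps21 measured 96.0, 130.4 and 105 CPM in the Axin1 libraries and 201, 166 and 174 CPM in the control libraries (log2 fold change -0.71, edgeR adjusted p = 0.0638). Rpl28 of the large subunit measured 22.0, 23.1 and 24.9 CPM in the Axin1 libraries and 44.6, 34.7 and 33.9 CPM in the control libraries (log2 fold change -0.69, edgeR adjusted p = 0.0901). These 3 genes had differences as large as the called ones, with no overlap between groups, and did not pass the threshold.

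The 4 called genes did not account for the group as a whole. Among the other 69 tested members 65 were negative, with a median log2 fold change of -0.38. The 45 tested genes of the large subunit had a median of -0.37, with 42 negative and 3 called lower. The 28 of the small subunit had a median of -0.46, with 27 negative and 1 called lower (0.49% of all genes were called lower). Of the 10 genes with a mean of at least 1000 CPM, all were negative, with a median of -0.44. In 9 of them the groups did not overlap (12.4% of all genes were lower without overlap). The 65 genes with at least 10 CPM had a median of -0.41.

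Some abundant genes were lower in every Axin1 library without passing the threshold. Rpl8, which lies beside the peptidyl transferase centre, measured 1239.6, 1177 and 1216 CPM in the Axin1 libraries and 1874, 1682 and 1645 CPM in the control libraries (log2 fold change -0.52, edgeR adjusted p = 0.0507). The gap between the groups was wider than the range within either. Rps3, at the mRNA entry, measured 1779, 1677 and 1754 CPM in the Axin1 libraries and 2551, 2219 and 2134 CPM in the control libraries (log2 fold change -0.41, edgeR adjusted p = 0.106). Rpl41, the smallest protein of the ribosome, measured 243, 287 and 247 CPM in the Axin1 libraries and 408, 367 and 370.3 CPM in the control libraries (log2 fold change -0.56, edgeR adjusted p = 0.0580). None of these 3 passed the threshold, and in none did the groups overlap.

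The 5S particle gave smaller differences. Rpl5 and Rpl11, which bind the 5S rRNA and, when free, the p53 regulator MDM2, had log2 fold changes of -0.32 and -0.37 (edgeR adjusted p = 0.223 and 0.159). Rpl5 measured 60.4, 63.6 and 57.1 CPM in the Axin1 libraries and 82.1, 75.6 and 68.9 CPM in the control libraries, again without overlap. Rpl11 measured 84.6, 90.6 and 91.2 CPM in the Axin1 libraries and 125, 116 and 103 CPM in the control libraries, without overlap as well.

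Other abundant genes had smaller differences. Rpl4, whose extension lines the peptide exit tunnel, measured 2251, 1902 and 2096 CPM in the Axin1 libraries and 2521, 2203 and 2029 CPM in the control libraries. The groups overlapped, with a log2 fold change of -0.11 (95% interval -0.37 to 0.15). Rps19, the gene most often mutated in human Diamond-Blackfan anaemia, measured 514, 527 and 388 CPM in the Axin1 libraries and 519, 452 and 499 CPM in the control libraries (log2 fold change -0.04, 95% interval -0.35 to 0.27). Rps6, a substrate of the S6 kinases, measured 147, 139 and 152 CPM in the Axin1 libraries and 167, 155 and 132 CPM in the control libraries (log2 fold change -0.05, 95% interval -0.32 to 0.22). In each of the 3 the group values overlapped, and the lower end of each interval lay above the median of the family, -0.40. The 3 were named after their small differences were seen, so this is no test of a difference from the family. With library sizes taken from the family's own reads, the log2 fold changes were 0.28 for Rpl4, 0.35 for Rps19 and 0.34 for Rps6.

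Rpl13 had the opposite sign. This large subunit gene measured 80.3, 113 and 91.5 CPM in the Axin1 libraries and 19.6, 19.6 and 53.6 CPM in the control libraries, and it is the gene that was higher without overlap. Its log2 fold change was 1.62 (SE 0.43, 95% interval 0.57 to 2.68), which did not pass the threshold (edgeR adjusted p = 0.152). The control libraries differed among themselves: control library 3 was well above the other two, and without it the log2 fold change was 2.26 (edgeR adjusted p = 7.21e-04). Rpl13 was also the 1 gene called higher by DESeq2 (adjusted p = 1.92e-04) and by the scaling to the summed ribosomal protein reads in edgeR (adjusted p = 0.0385). Of the 40-base words of its transcript 19.4% were its own, and 9 other annotated genes shared at least 10% of them. Of the 13 tested members with 10 or more such genes, 11 were negative, as were 69 of all 73 tested. The part of shared words in the sign of Rpl13 was not tested.

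Some genes scattered within groups far more than the rest. Over the 65 genes with at least 10 CPM the within-group SD on the log2 scale had a median of 0.139, and 6 genes were over 0.3: Rps2 (1.32), Rpl3 (0.899), Rpl13 (0.618), Rpl38 (0.496), Rps18 (0.453) and Rpl35a (0.403). Rps2, at the mRNA entry, measured 39.5, 13.4 and 8.47 CPM in the Axin1 libraries and 30.9, 4.52 and 6.43 CPM in the control libraries, and Rpl3, beside the peptidyl transferase centre, 129, 64.9 and 101 CPM in the Axin1 libraries and 165, 80.4 and 32.8 CPM in the control libraries. Replicates of Rps2 spanned several-fold within each group, and its log2 fold change of 0.55 had an interval of -1.84 to 2.95. That of Rpl3 was 0.08 (-1.46 to 1.62), and its sign turned without Axin1 library 1 (-0.16), control library 2 (-0.01) or control library 3 (-0.34). The sign of Rps2 turned without Axin1 library 1 (-0.35). Rpl17, the remaining gene with a positive value, had 8, 30 and 13 reads in the Axin1 libraries and 8, 16 and 3 reads in the control libraries (log2 fold change 0.78, edgeR adjusted p = 0.617). Rps18 measured 136, 94.8 and 70.2 CPM in the Axin1 libraries and 192, 112 and 120.1 CPM in the control libraries, with library 1 highest in each group. None of these genes passed the test in edgeR.

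**Figure D3:**
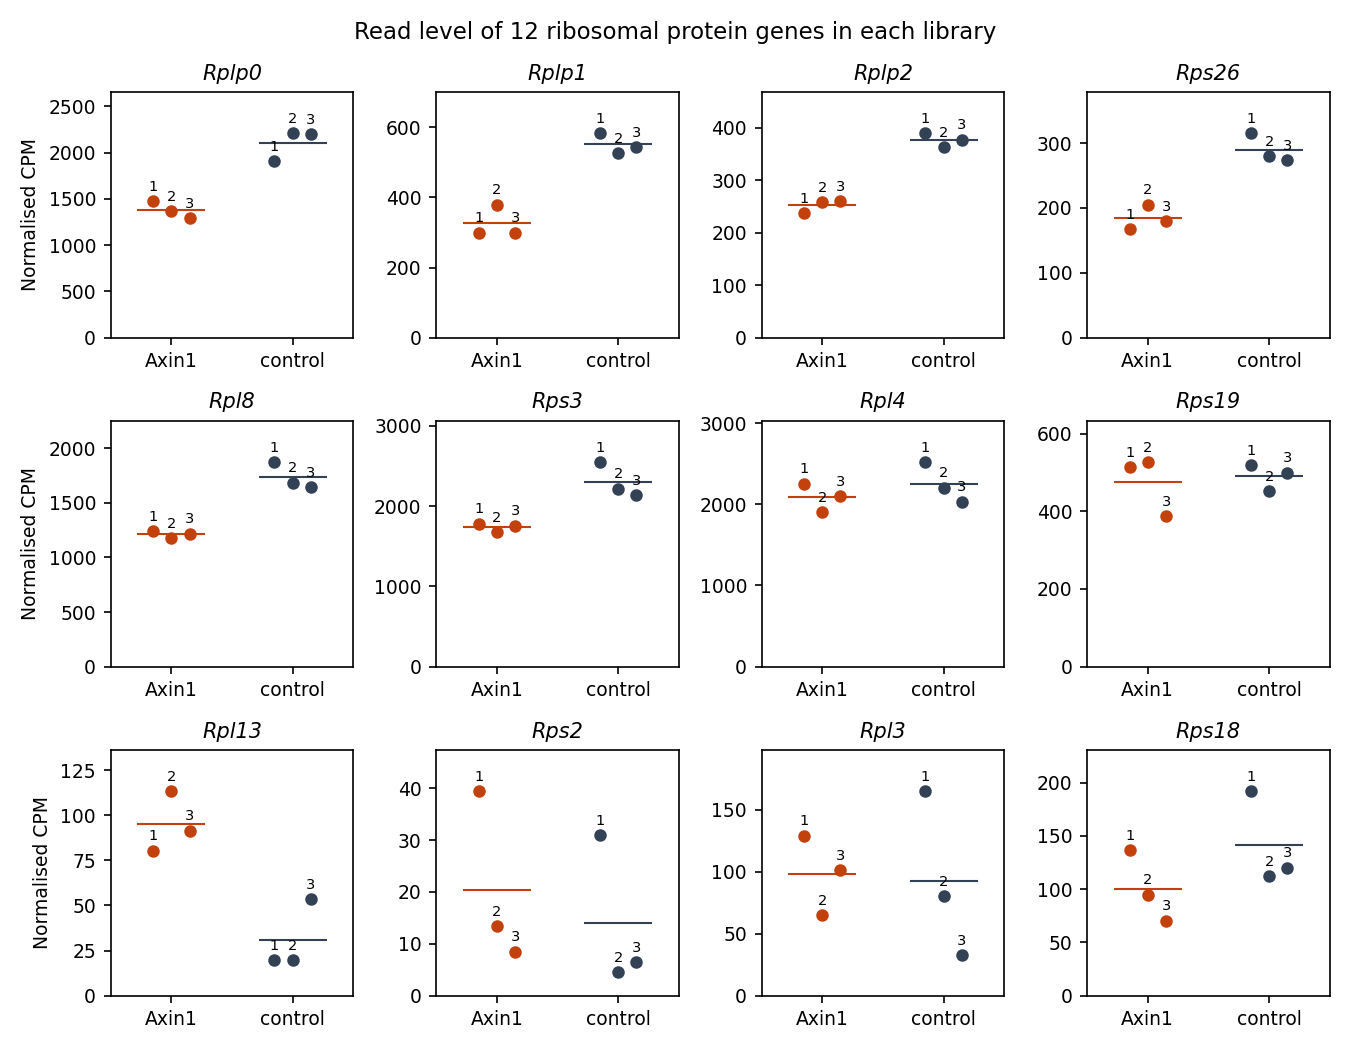
Normalised level in CPM of 12 ribosomal protein genes in each library, with Axin1 libraries left of control libraries, replicate numbers above the points and group means as lines. Each axis starts at 0. The top row holds the called genes Rplp0, Rplp1, Rplp2 and Rps26, and the bottom row holds Rpl13 and 3 genes whose replicates scatter.

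The median of the family lay lower in each Axin1 library than in any control library. The median log2 distance of the 73 tested genes from their control means was -0.45, -0.37 and -0.39 in Axin1 libraries 1, 2 and 3, and 0.13, -0.003 and -0.14 in control libraries 1, 2 and 3. The 3 Axin1 libraries were close to each other, and the controls were spread over a range whose low end lay above the highest Axin1 library. Libraries whose titles share a number gave medians of -0.56 (1813, 69 of 73 negative) and -0.39 (1814, 67 of 73 negative) for Axin1 over control. The labels do not say what that number marks.

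For most of these genes the length behind the deposited RPKM was shorter than the transcript. From each gene's reads, RPKM and library total the length used for the RPKM can be recovered. That length had a median of 38.6% of the annotated transcript (interquartile range 22.2 to 58.9) over the 76 genes, and for 50 of them it was under 50%. For 9079 other genes with a mean of at least 100 reads the median was 99.7%, and 6.06% were under 50%. The shortest recovered lengths were 35.3 bases for Rpl26, 40.4 for Rpl38, 45.4 for Rpl36 and 46.5 for Rps23, against annotated lengths of 526, 364, 383 and 937 bases. That of Rpl26 rests on at most 2 reads in a library and ran from 21.2 to 42.4 bases between libraries. The longest recovered lengths were 4849 bases for Rps15a, 1995 for Rpl22, 1849 for Rps3 and 1468 for Rpl21, all within 79.1% to 97.3% of the annotation. Rps20 is a case apart: its linked transcript has 3706 bases and the recovered length is 293, but the annotation used here is of a later build and may hold another form of the transcript.

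**Figure D4:**
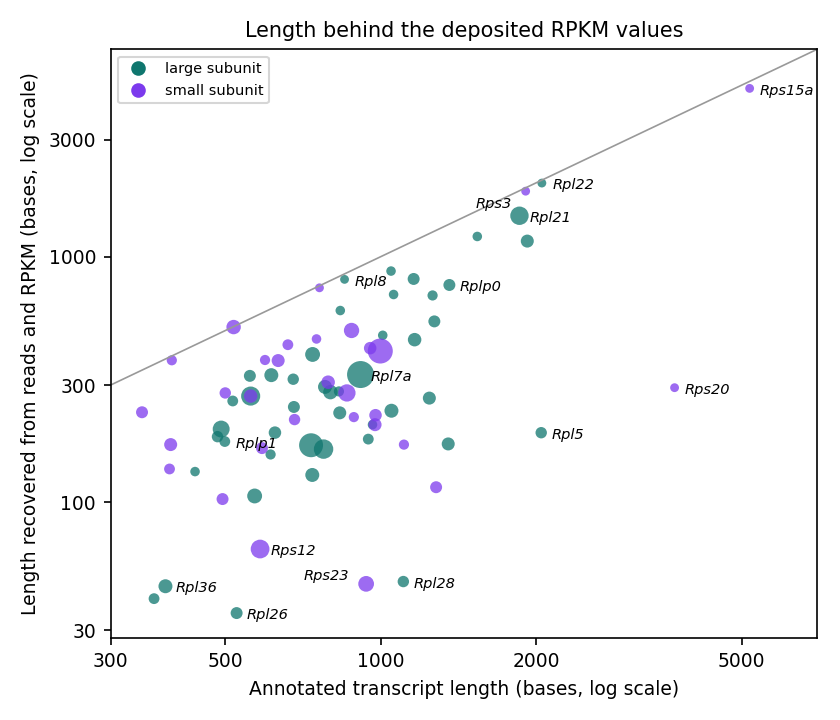
Length recovered from deposited reads and RPKM against the annotated transcript length, both in bases on log scales, for the 76 ribosomal protein genes. Larger points have more annotated genes sharing at least 10% of their 40-base words, and the line marks equal lengths. Most points lie well below the line; Rps3, Rpl8, Rpl22 and Rps15a lie near it.

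Copies are many in this family. A median of 47.5% of a transcript's 40-base words were found in no other annotated gene, with 1.31% for Rps27 at the low end. At least 10% of the words were shared with a median of 5 other genes, and with none for 6 genes. The highest counts were 50 for Rpl7a, 42 for Rps2, 38 for Rpl29 and 23 for Rpl17. RefSeq names 303 numbered pseudogenes after 61 of the 76 genes, with 23 each for Rpl31 and Rps12, 15 for Rpl21 and 14 for Rpl7a. Across the 76 genes the share of own words and the recovered share of length had a Spearman correlation of 0.299, which is a description over genes of the same libraries.

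On the RPKM scale, which uses the recovered lengths, the family's mean levels lay between quartiles of 178 and 1113, with a median of 410.4, although a ribosome holds most of these proteins in equal numbers. The highest was Rpl32 at 3908, 4447 and 4046 RPKM in the Axin1 libraries and 5248, 5140 and 4778 RPKM in the control libraries. Rps14 followed with 2887 ± 249.7 RPKM in the Axin1 group and 3939.8 ± 168 RPKM in the control group, and Rps9 with 2413 ± 29.3 RPKM in the Axin1 group and 2935 ± 174 RPKM in the control group (SD, n = 3 each). Also among the highest 6 were Rpl7, with 2347 ± 143 RPKM in the Axin1 group and 2984 ± 172 RPKM in the control group, and Rplp1, with 1858 ± 287 RPKM in the Axin1 group and 3101 ± 118 RPKM in the control group (SD, n = 3 each). Rpl32 and Rps14 stood above the next gene by more than the SDs in both groups, while Rps9, Rpl7 and Rplp1 each lay within the SDs of the next in at least 1 group. At the other end Rpl26 had 0, 1 and 1 reads in the Axin1 libraries and 2, 1 and 0 reads in the control libraries, Rps12 had 2, 4 and 1 reads in the Axin1 libraries and 5, 6 and 2 in the control libraries, and Rps23 had 3, 4 and 3 reads in the Axin1 libraries and 4, 5 and 3 in the control libraries. These 3 did not pass the filter and were not tested, and so few reads cannot show a difference. Rpl21 and Rpl17, also among the lowest 6, had 4.43 ± 1.23 and 7.83 ± 4.56 RPKM in the Axin1 group and 5.57 ± 0.604 and 4.25 ± 3.04 RPKM in the control group (SD, n = 3 each). With reads divided by annotated length in place of the recovered one, the order of the 76 genes was similar (Spearman 0.876). The number of RefSeq pseudogenes and the RPKM had a Spearman correlation of -0.506 over the 76 genes. Both correlations are descriptions over genes of the same libraries.

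The lower level in the Axin1 libraries was seen in genes with and without counted copies, meaning other annotated genes sharing at least 10% of their 40-base words. The 6 genes with no copy by this count, among them Rpl8, Rpl22, Rps3, Rps15a and Rps20, were all lower without overlap (12.4% of all genes were). Their median log2 fold change was -0.50. The count can miss copies, since RefSeq names 8 pseudogenes of Rps15a and 1 of Rpl22. Under 50% of the coding bases of Rps15a and Rps20 were covered by a word of their own. For Rpl8, Rpl22 and Rps3 that share was 91.5% to 100%. Rps20, of the small subunit head, measured 256, 281 and 305 CPM in the Axin1 libraries and 441, 449 and 323 CPM in the control libraries (log2 fold change -0.53). Rps15a measured 146, 180.1 and 172 CPM in the Axin1 libraries and 242, 265 and 209 CPM in the control libraries (-0.52). Rpl22 measured 238, 247 and 279 CPM in the Axin1 libraries and 377, 376 and 305 CPM in the control libraries (-0.47). In all 3 the lowest control value lay above the highest Axin1 value. The 13 tested genes with 10 or more copies had a median of -0.28, with 11 negative and 5 lower without overlap, against the same 12.4% of all genes. Genes whose recovered length was at least 50% of the annotation had a median of -0.42 (26 of 26 negative), and the others -0.39 (43 of 47 negative). Across the 73 genes the fold change had a Spearman correlation of 0.337 with the number of copies and of 0.268 with annotated length, again a description.

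Length itself moved with the comparison outside the family too. Among genes with a mean of at least 50 CPM and an annotated transcript under 700 bases, the 18 ribosomal protein genes had a median log2 fold change of -0.50 and 109 other genes had -0.25, of which 85.3% were negative. From 700 to under 1000 bases the medians were -0.37 (20 genes) and -0.23 (188 other genes), and from 1000 to under 2000 bases -0.36 (14 genes) and -0.12 (981 other genes). At 2000 bases or more they were -0.50 (4 genes) and 0.04 (2875 other genes). The classes rest on the annotation, and these 4 genes are Rpl5, Rpl22, Rps15a and Rps20. Their recovered lengths were 192, 1995, 4849 and 293 bases, so for Rpl5 and Rps20 the class is uncertain. In all 4 length classes the ribosomal protein genes had the lower median, and the other genes' medians were lower the shorter the class. The part of length in the family's difference was not tested.

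**Figure D5:**
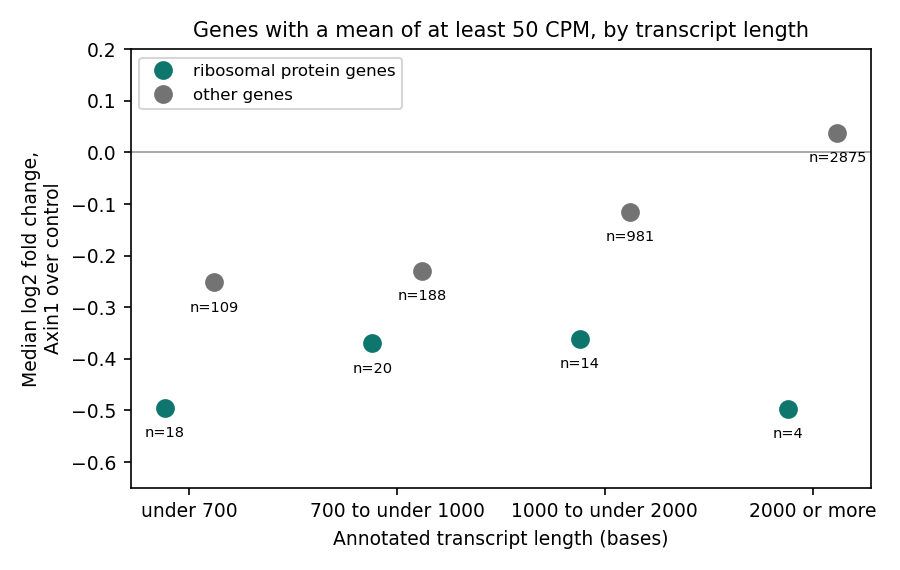
Median log2 fold change, Axin1 over control, by annotated transcript length for genes with a mean of at least 50 CPM, ribosomal protein genes left of other genes in each class, with the number of genes beside each point. The medians of other genes lie between -0.25 in the shortest class and 0.04 in the longest, and those of ribosomal protein genes between -0.50 and -0.36. The longest class includes Rpl5 and Rps20, whose recovered lengths were far shorter than the annotation.

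Upstream of the genes, the start site was examined for letters known from this family. RefSeq (GRCm38.p6) gave a promoter window, from 250 bases before to 50 after the start, for 55 of the 76 genes. Below are 45 bases, from 30 before the start to 15 after it, of 8 of them on the strand of the gene, with capitals for the longest run of C and T that has a base within 20 bases of the start, as far as it lies in the bases shown (the run of Rplp0 goes on past them): 4 lower genes with a difference near or past the threshold, Rpl13 with the opposite sign, and 3 close to the control level. They lie at chr5:115559437-115559481 (Rplp0, plus), chr7:141447621-141447665 (Rplp2, plus), chr10:128626492-128626536 (Rps26, minus), chr17:33824548-33824592 (Rps28, minus), chr8:123102320-123102364 (Rpl13, plus), chr9:64173357-64173401 (Rpl4, plus), chr7:24884883-24884927 (Rps19, plus) and chr4:86857353-86857397 (Rps6, minus).
Rplp0: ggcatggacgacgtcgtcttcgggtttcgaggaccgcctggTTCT
Rplp2: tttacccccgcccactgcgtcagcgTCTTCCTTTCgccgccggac
Rps26: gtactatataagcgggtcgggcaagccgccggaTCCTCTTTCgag
Rps28: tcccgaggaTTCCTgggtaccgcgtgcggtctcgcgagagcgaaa
Rpl13: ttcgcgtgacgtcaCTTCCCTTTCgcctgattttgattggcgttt
Rpl4: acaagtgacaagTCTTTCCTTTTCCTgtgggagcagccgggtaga
Rps19: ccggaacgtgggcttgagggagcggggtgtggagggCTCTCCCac
Rps6: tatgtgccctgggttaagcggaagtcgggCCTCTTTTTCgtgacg
The longest runs were 7, 10, 9 and 5 bases in Rplp0, Rplp2, Rps26 and Rps28, 10 in Rpl13, and 14, 7 and 10 in Rpl4, Rps19 and Rps6, so long runs stood on both sides. A run of 8 or more C or T within 20 bases of the start was present in 30 of the 55 genes (54.5%), against 23.6% of 26970 other genes. CTTTC in the same window was present in 18 (32.7%, against 6.39%), and CGGAAG, the core of ETS factor sites, on either strand of the full window in 38 (69.1%, against 18.7%). AAGATGG, a YY1 core, was in 9 (16.4%, against 7.26%), GGGCGG, the GC box, in 33 (60%, against 38.2%), and TATAAA from 45 to 15 bases before the start in 0 (against 2.58%). The motifs were searched as exact letters and may overlap. The 29 tested genes with a run of 8 or more had a median log2 fold change of -0.37, and the 23 with a shorter run -0.44.

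Other proteins of the ribosome and paralogues of the family that the symbol rule leaves out differed among themselves. Of 9 tested, 8 were negative with a median log2 fold change of -0.41, 4 were lower without overlap (12.4% of all genes) and 5 overlapped. By edgeR 0 were called, 4 were lower at an unadjusted p under 0.05 (8.14% of all genes), and DESeq2 called 3 lower (2.52% of all genes). Of the 9, 4 lay between -0.17 and 0.06 with overlapping groups. Gnb2l1 (now Rack1), the small subunit's signalling scaffold, measured 1461 ± 46.1 CPM in the Axin1 group and 2066 ± 138 CPM in the control group (log2 fold change -0.50, edgeR adjusted p = 0.0531). Rpsa measured 68.8 ± 2.49 CPM in the Axin1 group and 105 ± 17.4 CPM in the control group (log2 fold change -0.61, edgeR adjusted p = 0.0838; SD, n = 3 each). Elongation factors and other TOP mRNAs (14 tested) had 13 negative and a median of -0.28, with 0 called by edgeR, 9 lower at an unadjusted p under 0.05, and 2 called lower by DESeq2, beside the same shares of all genes. Eef2, which moves the ribosome along the mRNA, measured 2934 ± 142 CPM in the Axin1 group and 3867 ± 209 CPM in the control group (-0.40, edgeR adjusted p = 0.0873), and Eef1a1, which delivers aminoacyl-tRNA, measured 3065 ± 319.99 CPM in the Axin1 group and 4199 ± 395 CPM in the control group (-0.45, edgeR adjusted p = 0.106).

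Genes that make or regulate ribosomes had medians near 0. Ribosome biogenesis factors had 19 of 39 negative and a median of 0.01, RNA polymerase I and its factors 9 of 14 and -0.06, translation initiation factors 16 of 33 and 0.04, and regulators of ribosomal protein genes and of the nucleolar stress route 7 of 17 and 0.07. Mitochondrial ribosomal proteins, which belong to a separate ribosome, had 58 of 75 negative and a median of -0.17. In these 5 lists edgeR called 0 genes in either direction. At an unadjusted p under 0.05 there were 4 lower and 3 higher biogenesis factors, 2 lower and 0 higher of RNA polymerase I, 10 lower and 3 higher initiation factors, 0 lower and 2 higher regulators, and 8 lower and 6 higher mitochondrial ribosomal proteins, where 8.14% of all genes were lower and 9.06% higher. DESeq2 called 4 lower and 2 higher initiation factors, 2 higher regulators and 1 higher mitochondrial ribosomal protein, against 2.52% of all genes lower and 3.17% higher. Eif5a, the factor that helps ribosomes past stalling sequences, measured 1184 ± 94.7 CPM in the Axin1 group and 724 ± 122 CPM in the control group (SD, n = 3 each). That is 0.71 on the log2 scale (edgeR adjusted p = 0.0593). The initiation factors next in order of p, Eif3k, Eif3i and Eif2b4, were lower without overlap. Their log2 fold changes were -0.48, -0.42 and -0.58 (edgeR adjusted p = 0.0807, 0.0901 and 0.109). Myc, a transcription factor that drives ribosome production, differed by 0.74 on the log2 scale (edgeR adjusted p = 0.191), and for Mdm2, the p53 inhibitor bound by free Rpl5 and Rpl11, the log2 fold change was 1.13 with no overlap (edgeR adjusted p = 0.0635).

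Sums over markers of other cells overlapped between the groups. Over 8 macrophage markers the sum was 191 to 2232 CPM in the Axin1 libraries and 349.9 to 692 CPM in the control libraries, and over 6 erythroid markers 238 to 2620 CPM in the Axin1 libraries and 686 to 3009 CPM in the control libraries. Megakaryocyte and platelet markers (4 genes) summed to 440.4 to 1991 CPM in the Axin1 libraries and 1079 to 1189 CPM in the control libraries. Neural markers (6) summed to 236 to 263 CPM in the Axin1 libraries and 173 to 344 CPM in the control libraries, and pericyte and mesenchyme markers (6) to 25.9 to 78.4 CPM in the Axin1 libraries and 17.4 to 68.7 CPM in the control libraries. Of these 30 markers 1, the erythroid marker Hba-a1, an alpha-globin gene, was at 0 in all libraries. EdgeR called 0 of them, 0 had an unadjusted p under 0.05, and DESeq2 called 0. The 8 endothelial markers were all detected and summed to 6598 to 7388 CPM in the Axin1 libraries and 6606 to 6879 CPM in the control libraries. EdgeR called 0 of these 8, and 2 had an unadjusted p under 0.05: Cdh5, which encodes VE-cadherin, was 0.68 higher on the log2 scale (edgeR adjusted p = 0.218), and Esam, an adhesion molecule, differed by -0.31 (edgeR adjusted p = 0.176). DESeq2 called 1, Cdh5 (adjusted p = 0.0406). The groups did not overlap for either gene, and their part in the family's difference was not tested. Axin1 library 1 had the lowest macrophage and erythroid sums of its group and Axin1 library 3 the highest. Their shares of ribosomal protein reads were 2.15% and 2.16%. In control libraries 1, 2 and 3 the erythroid sums rose, at 686, 1838 and 3009 CPM, and the shares fell, at 2.97%, 2.83% and 2.69%. Neural and pericyte sums also rose in that order, and the macrophage sums were 353, 692 and 349.9 CPM. The part of other cells in these shares was not tested. Over reads outside the globin genes the share was 2.18% ± 0.0361 in the Axin1 group and 2.84% ± 0.140 in the control group (SD, n = 3 each).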

How the data were processed

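RNA-seq was measured in 6 libraries, 3 overexpressing Axin1 and 3 controls, grouped by their descriptions. For each of 22958 RefSeq entries the authors deposited 1 read count and 1 RPKM/FPKM value per library, per the file headers. Counts were whole numbers and used as deposited. The deposited RPKM values were used for levels between genes and for the recovered length. Bowtie and the mm9 build are named in the submitters' processing notes, without versions. Not given in the sources used here are the counting program, read length, strand setting and how multiply matching reads were treated.

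Genes were kept with filterByExpr (minimum count 10, minimum total 15; 12661 genes) and tested in R 4.3.3 with the robust quasi-likelihood test of edgeR 4.0.16, with TMM factors of 0.975 to 1.02 and no covariates. Benjamini-Hochberg adjustment was over all tested genes, at 0.05. The common biological coefficient of variation was 25.3%. Levels are TMM-normalised CPM; errors are SD over 3 libraries, or SE and 95% confidence intervals from the fit. Descriptions call libraries of a group biological replicates and give no litter or pool, so p-values measure the spread between these libraries. Replicates differed by more than sampling error, with a chi-square of 12.8 to 36.2 per degree of freedom. Alternatives were DESeq2 1.42.0, limma 3.58.1 on log2(RPKM + 1), other scalings, no filter, each library left out and replicate blocks.

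The recovered length is the length at which a gene's reads and library total give its deposited RPKM, as the median over libraries. Transcripts were linked by RefSeq identifier to GENCODE M21 (GRCm38), since no mm9 annotation was used here. Word sharing counts 40-base words of the transcript in any other annotated gene, and promoters are RefSeq's (GRCm38.p6).

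The genes, the lists and the rule for named genes were chosen with earlier results of these data known. The rule took the 4 genes Rplp0, Rplp1, Rplp2 and Rps26, every called member, the 6 highest and lowest by RPKM and by fold change, the 4 shortest and longest by recovered length, the 4 with most pseudogenes, and list genes with the smallest p. Rpl4, Rpl8, Rpl11, Rpl29, Rpl35a, Rpl41, Rps6, Rps18, Rps19, Cdh5 and Esam were named after their values were seen. Some genes that the rule takes are not reported here. Counts of genes with near-identical copies are uncertain.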

Additional observations from a re-analysis of the deposited data

How the results depend on the processing

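All genes called numbered 107, and 720 with DESeq2, 197 without the filter, 2295 relative to the summed ribosomal protein reads, and 0 to 695 with 1 library left out (edgeR called 0 without Axin1 library 2 or control library 2, where 1733 and 1539 had an unadjusted p below 0.05). Ribosomal protein genes called numbered 4, and 27 with DESeq2, 11 without the filter, 11 with limma on log2(RPKM + 1), 1 (Rpl13) relative to their own summed reads, and 0 to 27 with 1 library left out, where the value of 27 came without control library 3. Of the calls, 57.9% were lower, against 44.3% with DESeq2, 26.2% without control library 3, 48.5% without Axin1 library 1, 77.8% without Axin1 library 3, 90% without control library 1 and 2.27% relative to the ribosomal protein reads, a scaling that moved the median of all genes to 0.41 and that of the family to -0.011. The median of the family lay between -0.47 and -0.33 with 1 library left out, and the difference in its share of reads, -0.66 percentage points, lay between -0.73 and -0.58, and was -1.92 on the RPKM scale. The 4 called genes kept adjusted p-values under 0.05 in DESeq2 (3.22e-05 to 4.63e-04) and without control library 3 (0.0175 to 0.0229), and had 0.0744 to 0.208 without any other library; the cause was not tested. Relative to the ribosomal protein reads the sign turned for 32 of 73 genes, among them Rpl11 (0.024), Rpl21 (0.050), Rpl31 (0.0085), Rpl32 (0.085), Rpl35a (0.12), Rpl36 (0.019), Rpl4 (0.28), Rpl5 (0.071), Rpl7 (0.030), Rps19 (0.35), Rps6 (0.34) and Rps9 (0.094), and also for the endothelial marker Esam (0.085). With 1 library left out the sign turned for 1 to 3 of 73 genes, and the log2 fold change crossed 0 for, among others, Rpl3 (-0.34 to 0.79), Rps2 (-0.35 to 1.90), Rps19 (-0.12 to 0.087) and Rps6 (-0.15 to 0.021). Description numbers did not pair all the libraries: deviations of same-numbered libraries correlated at 0.234, 0.152 and -0.023. Axin1 libraries 1 and 2 correlated best with the control of their own number, and with the control of each other's number at -0.249 and -0.215. Control library 2 correlated best with Axin1 library 3 (0.175), and library 3 of each group did not correlate best with its own number. With that number as a replicate block in edgeR 105 genes and 0 ribosomal protein genes were called (adjusted p 0.0510 to 0.0665 for the 4). In that fit 49 of the 73 ribosomal protein genes had an unadjusted p under 0.05, as did 2215 of all 12661 genes. With the title numbers 1813 and 1814 as a block over 4 libraries 1500 of 12628 genes were called (35.4% of all calls lower). Of the 73 ribosomal protein genes 45 were called, 44 lower and 1 higher, where 4.2% of all genes were called lower. In that fit 3 of 73 genes changed sign, among them Rpl3 (-0.34) and Rps19 (0.10). Added after seeing the data, the median was -0.42 over genes whose recovered length was at least 50% of the annotation and -0.41 over those with at least 10 CPM, and own words had a median share of 43.0% at 30 bases and 51.7% at 60. Recovered lengths had a median of 38.0% of the longest linked transcript.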

Other observations

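Entries next to the family by name had levels of their own. Rps27l, a p53-responsive paralogue of Rps27, had 2048, 2773 and 1504 reads in the Axin1 libraries and 1964, 1905 and 1615 reads in the control libraries, while Rps27 itself measured 2.08, 2.07 and 2.33 CPM in the Axin1 libraries and 2.98, 2.91 and 2.94 CPM in the control libraries (log2 fold change -0.45, edgeR adjusted p = 0.570). The paralogue thus held far more reads than the gene it is named after, of which 1.31% of the 40-base words were its own. Rpl22l1 had 818, 986 and 1061 reads in the Axin1 libraries and 1026, 1226 and 757 in the control libraries. Rpl7l1 had 3715, 3769 and 2428 reads in the Axin1 libraries and 3509, 3433 and 3121 in the control libraries, and Rpl36al had 1155, 1534 and 1126 in the Axin1 libraries and 1554, 1763 and 1310 in the control libraries. Rpl3l, Rpl39l and Rpl10l, known from muscle and germ cells, had 5 to 16, 8 to 41 and 0 reads in a library.

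Of the pseudogenes with an entry, Rps19-ps3 had 184, 236 and 175 reads in the Axin1 libraries and 202, 187 and 178 reads in the control libraries, Rpl34-ps1 had 0 to 2 reads and Rplp2-ps1 had 0 in every library. Rps29, a zinc-binding protein of the small subunit, measured 3.44, 3.79 and 3.20 CPM in the Axin1 libraries and 5.95, 4.75 and 4.69 CPM in the control libraries, without overlap (log2 fold change -0.56, edgeR adjusted p = 0.375).

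Mrps15, a protein of the mitochondrial small subunit, had values ordered like those of Rpl13: 27.0, 39.4 and 35.4 CPM in the Axin1 libraries and 5.86, 4.68 and 14.9 CPM in the control libraries, with control library 3 above the other controls (log2 fold change 2.01, edgeR adjusted p = 0.0936). Such an order was not particular to these genes. Mrps22 measured 6.56, 7.13 and 16.3 CPM in the control libraries and Mrps2 28.3, 26.0 and 44.9 CPM, and both were higher in the Axin1 libraries without overlap. Of the 75 mitochondrial ribosomal proteins, 7 were higher without overlap and 22 lower (11.3% and 12.4% of all genes). Mrps15, Mrps22 and Mrps2 were picked after their values were seen.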
